A study of Striga hermonthica with 6 samples.

Results

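The loci described here are 2326 small RNA loci of *Striga hermonthica* with a length of 420 nt or of 1 or 2 nt more, out of 25056 loci counted in the series (9.28%). They were chosen by mark, length and contig: a locus had to carry no *MIRNA* mark, to have one of these lengths from its first to its last coordinate, and to lie on a contig with 6 or more loci. ShortStack calls loci from aligned reads, so a locus had reads before it could be chosen, but no difference between libraries was used. Locus lengths are written below as the excess over 400 nt, so that these are the loci of +20, +21 and +22 nt and a locus of 420 nt is one of +20 nt. Of 2462 unmarked loci of these lengths, 136 were left out because their contig held fewer than 6 loci, and 0 loci marked as *MIRNA* had one of these lengths.

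*S. hermonthica* is a root parasite of cereals that takes water and nutrients from its host through the haustorium, an organ that joins its own vessels to those of the host root. Every library came from the Kibos ecotype grown for 45 days on rice, *Oryza sativa* japonica Kitaake, with 16 h of light at 30 °C. There were 3 groups of 2 libraries: unstaged haustorium, with no stage in its label (numbered 1 and 3), stage 6 haustorium (1 and 2) and stage 6 leaf (1 and 2). The sources used here do not define stage 6 or describe replicates as separate plants, so the p-values below measure only the spread between libraries, which may be technical. Haustorium touches and enters the rice root, and reads of rice origin were not separated from those of the parasite. The loci carry no tissue marker genes, so the tissue labels were not checked against markers, and a different level can mean another mix of cells or another amount of RNA per cell, which cannot be told apart in bulk libraries.

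A small RNA locus is a stretch of genome where small RNA reads pile up. In plants most such loci are not *MIRNA* genes: Dicer-like enzymes cut double-stranded RNA into short interfering RNAs, which Argonaute proteins use to silence matching transcripts or to direct DNA methylation to transposons and repeats. A *MIRNA* gene instead gives a hairpin from which a single exact duplex is cut. The count files do not hold read lengths or strands, so the kind of small RNA made by the loci below was not tested.

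Among unmarked loci on contigs with 6 or more loci, +20 to +22 nt lay on the rising side of a peak in the length distribution. There were 569 loci of +19 nt, then 621 of +20 nt, 763 of +21 nt and 942 of +22 nt, followed by 1058 of +23 nt, 1538 of +24 nt and 463 of +25 nt. The commonest length was +24 nt, and another, lower peak stood at +15 nt with 1093 loci. The +20 to +22 nt loci therefore sit between the trough at +19 nt and the sharp maximum at +24 nt, and 40.5% of them were of the longest length, against 26.7% of the shortest. Whether the excess over 400 nt matches the length of the small RNAs was not tested.

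**Figure D1:**
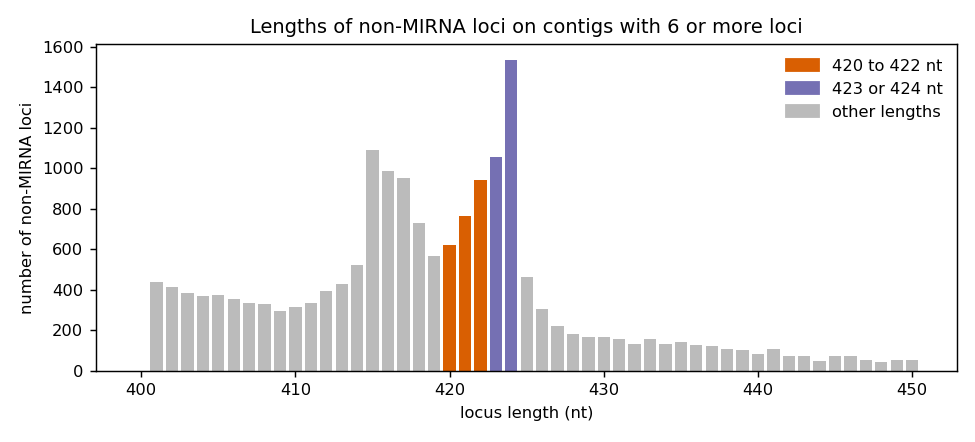
Number of unmarked small RNA loci on contigs with 6 or more loci (y axis) at each locus length in nt (x axis, whole lengths), for lengths about the peak. The orange bars at 420 nt and the next 2 lengths (621, 763 and 942 loci) climb to the maximum of 1538 loci in the higher purple bar, +24 nt, after which the number drops to 463.

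The +20 to +22 nt loci were spread over 102 of the 118 contigs with 6 or more loci. On the 61 contigs with 100 or more loci they made up a median of 10.3% of the loci, from 4.63% to 18.9%. The contigs with the most of them were CACSLK010030184.1 (116 of its 1200 loci) and CACSLK010034598.1 (113 of 1159), where their share, 9.67% and 9.75%, was close to that median.

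Most lay between genes. By the annotation of the SHERM assembly, 240 of 2326 (10.3%) overlapped an annotated gene, compared with 9.63% of the 2596 loci of +23 or +24 nt and 11.4% of all unmarked loci. By length, 11.1% of the +20 nt loci, 12.2% of the +21 nt loci and 8.28% of the +22 nt loci did so. The other 2085 on contigs with genes had a median distance of 3110 nt to the nearest gene, and 493 of them were within 1000 nt of one. The genes SHERM_15158 and SHERM_24080 each overlapped 2 of the loci. The next small RNA locus was a median of 5713 nt away, and for 456 (19.6%) it was within 1000 nt, a share much like the 19.5% of the +23 or +24 nt loci. These positions are given without a test, since loci share contigs and are not replicates.

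The counted reads of a library came to between 3031863 and 8381235, and CPM below is a count scaled to all counted reads of its library. Replicate 2 of stage 6 haustorium and replicate 1 of leaf were unlike the other 4, with TMM factors (edgeR's correction of the library size) of 1.78 and 1.74 against 0.609 to 0.979, and are called the libraries that stood apart. For the main comparisons the values without these libraries are given as well. Counts of replicates differed by more than sampling noise in each group (chi-square per degree of freedom of 117 or more), so none was counted as a repeat deposit.

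Together the +20 to +22 nt loci held 1.96% of all counted reads. In unstaged haustorium they held 1.69% in replicate 1 and 1.20% in replicate 3. In stage 6 haustorium they held 1.62% in replicate 1 and 2.94% in replicate 2, and in leaf 3.06% in replicate 1 and 1.21% in replicate 2. The high values are those of the 2 libraries that stood apart, 1 of leaf and 1 of stage 6 haustorium, and the groups overlapped. The group means were 1.45% ± 0.349 (SD, n = 2) for unstaged haustorium, 2.28% ± 0.930 (SD, n = 2) for stage 6 haustorium and 2.13% ± 1.30 (SD, n = 2) for leaf. Leaf exceeded the 4 haustorium libraries by 0.271 percentage points (two-sided exact permutation test, p = 0.80, adjusted 0.80 over the 4 tests of this kind), and a split of 2 against 4 libraries allows no p under 0.133. Without leaf replicate 1 the difference was -0.651 points, and without both libraries that stood apart it was -0.293 points.

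Loci with 0 reads were a minority of each library, most frequent in the shallowest library and least in the 2 libraries that stood apart. In unstaged haustorium 168 loci (7.22%) had 0 reads in replicate 1 and 268 (11.5%) in replicate 3. In stage 6 haustorium there were 328 (14.1%) in replicate 1, the shallowest library, and 81 (3.48%) in replicate 2. In leaf there were 72 (3.10%) in replicate 1 and 180 (7.74%) in replicate 2. The lowest counts were again in stage 6 haustorium replicate 2 and leaf replicate 1, and the range within stage 6 haustorium was wider than the difference between tissues. Leaf had 3.67 percentage points fewer loci with 0 reads than haustorium (two-sided exact permutation test, p = 0.533, adjusted 0.711), which is not past the spread between libraries. Without both libraries that stood apart the difference was -3.21 points. When each library was thinned to the depth of the shallowest, the shares were 10.4% and 16.1% in unstaged haustorium, 14.1% and 4.39% in stage 6 haustorium and 4.51% and 11.5% in leaf, so replicates still differed. The limit that a count of 0 sets, 3 reads, came to 0.358 to 0.989 CPM according to the library, and a level below it was not detectable at this depth.

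Over all libraries, 698 of the loci (30.0%) had 0 reads in at least 1 library, against 28.0% of all loci. Of these, 183 were at 0 in 2 libraries, 67 in 3, 22 in 4 and 4 in 5, the rest in 1 library, and 0 loci were at 0 in all 6. Both leaf libraries were at 0 for 9 loci, and all 4 haustorium libraries for 7. At the other end, 727 (31.3%) had 10 or more reads in every library, compared with 40.5% of all loci.

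The median CPM of a +20 to +22 nt locus was 5.13 and 2.50 in replicates 1 and 3 of unstaged haustorium. It was 3.63 and 10.6 in replicates 1 and 2 of stage 6 haustorium, and 10.5 and 3.24 in replicates 1 and 2 of leaf. A typical locus thus had about the same level in 1 library of leaf and 1 of stage 6 haustorium, and a much lower level in the replicate of each. By length, leaf replicate 1 gave 9.66, 10.9 and 10.6 CPM at +20, +21 and +22 nt, and stage 6 haustorium replicate 2 gave 10.1, 9.78 and 11.8 CPM. In the other 4 libraries the 3 medians lay between 2.36 and 5.25 CPM.

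Against the neighbouring lengths of +23 or +24 nt, the +20 to +22 nt loci were of lower typical level in each library. The median CPM of a +23 or +24 nt locus was 6.20 and 2.94 in unstaged haustorium, 4.29 and 12.9 in stage 6 haustorium and 12.2 and 3.60 in leaf. The difference in log2 median CPM was -0.23 ± 0.046 (SD, n = 6 libraries), a ratio of 0.850, with the lower value at +20 to +22 nt in 6 of 6 libraries. A two-sided exact sign-flip permutation test over libraries gave p = 0.0313, the smallest that 6 libraries can give, and 0.125 after adjustment over 4 tests. The direction turned when the mean CPM was used in place of the median (0.15 on the log2 scale, p = 0.219 by the same exact test), which is a measure that gives the few most abundant loci, described below, more weight. Loci with 0 reads were more frequent at +20 to +22 nt by 1.07 ± 0.750 percentage points (SD, n = 6), in every library except leaf replicate 1 (exact sign-flip permutation test, p = 0.0625, adjusted 0.125). Without both libraries that stood apart the 2 differences were -0.23 on the log2 scale and 1.42 points, and 4 libraries allow no p under 0.125 in the same exact test. The locus lengths came from aligned reads of these same libraries, and every library scores the same loci. Agreement between libraries is therefore not independent support for either difference.

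Along single lengths, the median over loci of the mean CPM was 6.39 at +19 nt, 6.43 at +20 nt, 6.28 at +21 nt, 6.60 at +22 nt, 7.05 at +23 nt and 7.75 at +24 nt. The share of loci with 0 reads in at least 1 library was 32.0%, 31.6%, 29.6%, 29.3%, 29.2% and 25.6% in the same order. By level the +20 to +22 nt loci were closer to +19 nt than to +24 nt, and by the share with 0 reads +20 nt was close to +19 nt, and +21 and +22 nt to +23 nt. This is a description with no test.

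**Figure D2:**
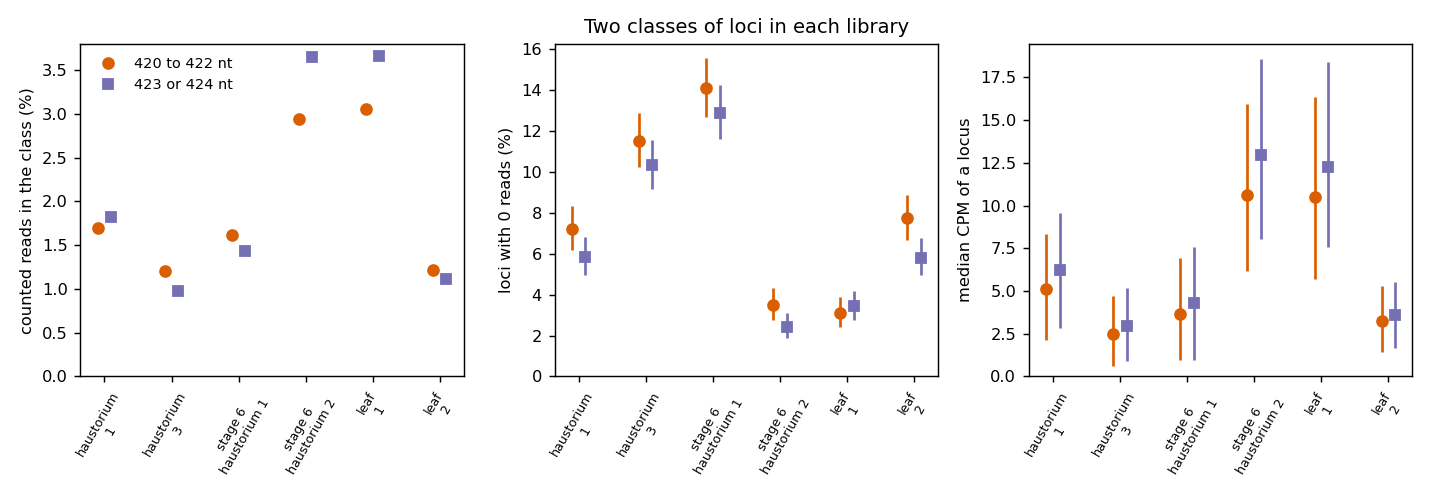
For each of the 6 libraries, the share of counted reads in % (left), the share of loci with 0 reads in % with 95% exact binomial intervals that cover counting error only (middle) and the median CPM of a locus with bars from the lower to the upper quartile (right), for loci of +20 to +22 nt (circles) and of +23 or +24 nt (squares). Stage 6 haustorium replicate 2 and leaf replicate 1 have the highest medians, 10.6 and 10.5 CPM at +20 to +22 nt, and the squares lie above the circles in the right panel in each library.

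The loci were of even, low abundance with a short tail. The mean CPM over the 3 groups ran from 2.49 to 713.7 with a median of 6.44 and quartiles of 5.10 and 8.31, and 2042 loci (87.8%) were under 10 CPM. Only 52 reached 20 CPM and 7 reached 100 CPM, and the 10 loci with most reads held 10.6% of the reads of the whole class. For 601 loci, 50% or more of the CPM summed over libraries came from 1 library, and for 69 it was 90% or more.

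For most loci the highest library was 1 of the 2 that stood apart. The TMM factors that set these libraries apart come from the same counts, so this is not a separate result. Stage 6 haustorium replicate 2 and leaf replicate 1 were highest for 954 loci each, together 82.0%, compared with 76.7% of all loci and 86.7% of the +23 or +24 nt loci. Haustorium replicate 1 was highest for 190, stage 6 haustorium replicate 1 for 123, haustorium replicate 3 for 68 and leaf replicate 2 for 37. Both libraries that stood apart exceeded all other 4 for 1020 loci (43.9%), against 42.8% of all loci.

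Levels across loci were not closer between replicates than between groups. Across the 2326 loci the Spearman correlation of counts within a group was 0.215 for unstaged haustorium, 0.0723 for stage 6 haustorium and -0.0729 for leaf. Between groups it had a median of 0.138 over 12 pairs, from -0.143 to 0.269. Over all 25056 loci the medians were 0.347 within and 0.376 between groups. These correlations are across loci, which share libraries and depth and are not independent replicates, and most of the loci differ little in level, so they carry no test. The 2 libraries that stood apart had a correlation of -0.128 with each other across the 2326 loci, but of 0.392 over all 25056 loci. The reads of a locus summed over libraries had quartiles of 214 and 343 across the 2326 loci. With totals so alike, more reads in a library leave fewer for the others, so a low or negative value does not show that libraries are opposed.

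Some adjacent loci shared their highest library. Where the nearest locus was within 1000 nt, both had the same highest library in 186 of 456 cases (40.8%), and within 200 nt in 69 of 154 (44.8%). Where it was farther away, this held for 583 of 1870 (31.2%). Stage 6 haustorium replicate 2 and leaf replicate 1 were each highest for 41.0% of the loci, so unrelated loci often agree. The share over all loci was not computed, and the difference was not tested.

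The question of leaf against haustorium was asked locus by locus with edgeR's quasi-likelihood test over 24421 loci, 2269 of them of +20 to +22 nt. In the contrast of leaf with the mean of the haustorium groups, 0 of the 2269 passed an adjusted p of 0.05 in either direction, as did 0 of all loci tested (0% called). At an unadjusted p under 0.05 there were 90 (3.97%), against 3.25% of all loci tested, a share near the background. The median log2 fold change was 0.14 for the +20 to +22 nt loci and 0.12 for all loci, with a median standard error of 1.04 per locus, so a typical locus could not be separated from no change at this spread.

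Leaf against stage 6 haustorium and stage 6 against unstaged haustorium gave the same count of calls. In the first contrast edgeR called 0 of 2269 (0% of all loci called), with 58 (2.56%) at an unadjusted p under 0.05 against a background of 2%. In the second it called 0 (0% of all loci called), with 91 (4.01%) against a background of 4.39%. The median log2 fold changes were 0.016 against 0.051 over all loci and 0.15 against 0.016 over all loci, respectively. The 3 contrasts share libraries, so they are not independent of one another. DESeq2, which estimates the spread differently, called 14 of the loci higher and 7 lower in leaf than in haustorium, where 0.391% and 0.411% of all loci were called. It called 7 higher and 6 lower in leaf than in stage 6 haustorium (0.231% of all loci in each direction). It called 25 higher and 16 lower in stage 6 than in unstaged haustorium (0.801% and 0.83% of all loci). Without both libraries that stood apart, leaf and stage 6 haustorium kept a single library each, so only effect sizes are given. The median log2 fold changes in edgeR were then 0.16, 0.096 and -0.18 in the same order, against 0.10, 0.068 and -0.28 over all loci.

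Counting loci whose groups did not overlap in CPM also gave few differences between leaf and haustorium. Both leaf libraries were above all 4 haustorium libraries for 55 loci (2.36%, background 1.63%) and below them for 46 (1.98%, background 2%). Of the 55, 54 had 10 or more reads in both leaf libraries, 3 were at 0 in every haustorium library and 5 overlapped a gene. Of the 46, 37 had 10 or more reads in every haustorium library, 3 were at 0 in both leaf libraries and 6 overlapped a gene. Leaf was above stage 6 haustorium for 102 loci (4.39%, background 4.76%) and below it for 226 (9.72%, background 8.55%). Stage 6 was above unstaged haustorium for 658 loci (28.3%, background 25.7%) and below it for 105 (4.51%, background 8.98%). Without stage 6 haustorium replicate 2, stage 6 was above unstaged haustorium for 778 loci (33.4%, all loci 31.6%) and below it for 683 (29.4%, all loci 31.5%), so the 2 directions were then near each other. Without both libraries that stood apart, leaf was above all haustorium for 359 loci (15.4%, all loci 15%) and below it for 493 (21.2%, all loci 24.2%). With a single library left in a group, groups fail to overlap more easily, so these counts are to be read against their own background.

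**Figure D3:**
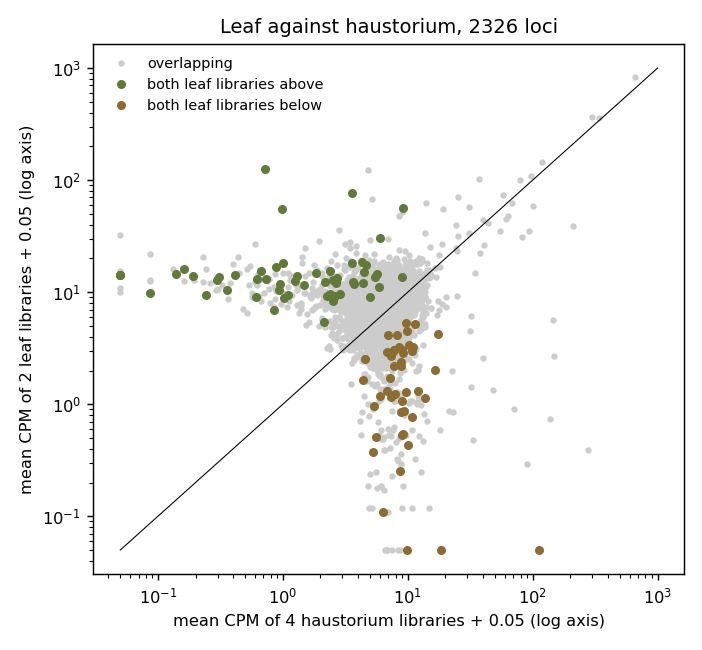
Mean CPM of the 2 leaf libraries (y axis) against mean CPM of the 4 haustorium libraries (x axis), both on log axes after adding 0.05 CPM, for the 2326 loci of +20 to +22 nt, with the line of equal level. Green points are the 55 loci with both leaf libraries above all haustorium libraries, brown points the 46 with both below, and grey points, most of them near 6 CPM, the loci whose groups overlap.

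Most of the loci that set the upper tail of abundance were not steady between replicates. For unstaged haustorium, stage 6 haustorium and leaf, in the order of the replicate numbers, Cluster_1165 (+22 nt, CACSLK010001140.1:5066328-5066749, 7398 nt from SHERM_10393) had 310 and 150, 1167 and 996, and 1229 and 430 CPM. It was the most abundant of all 2326, and both stage 6 haustorium libraries were above both unstaged ones, while leaf overlapped haustorium. Its log2 fold change was 0.38 ± 0.75 (SE) for leaf against haustorium and 1.80 ± 0.86 (SE) for stage 6 against unstaged haustorium, with unadjusted p of 0.626 and 0.0941 in edgeR. Cluster_11361 (+22 nt, CACSLK010024540.1:16888152-16888573, 2036 nt from SHERM_20970) had 154 and 110, 720 and 205, and 287 and 452 CPM in the same order. It was present at 110 CPM or more in every library, and leaf again overlapped haustorium.

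Cluster_14714 (+21 nt, CACSLK010027773.1:8565449-8565869) had 232 and 697 CPM in unstaged haustorium, 438 and 2.01 CPM in stage 6 haustorium, and 45.3 and 677 CPM in leaf. The replicates of stage 6 haustorium lay more than 100 CPM apart and so did those of leaf, and the low values were those of the 2 libraries that stood apart. Cluster_14260 (+21 nt, CACSLK010027752.1:14517724-14518144) showed the opposite, with 23.9 and 47.1, 35.6 and 279, and 208 and 10.4 CPM. Its 2 high values were in the libraries that stood apart. Neither locus separated leaf from haustorium, with log2 fold changes of 0.33 ± 2.18 (SE) and -0.071 ± 1.09 (SE).

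Cluster_17025 (+22 nt, CACSLK010027833.1:12363141-12363562) was present or absent by library and not by tissue. It had 1275 and 765 reads in unstaged haustorium, 0 and 1483 in stage 6 haustorium, and 2113 and 0 in leaf, or 152 and 113, 0 and 213, and 288 and 0 CPM. The locus lies 1011 nt from SHERM_27535 and 246 nt from the next small RNA locus, Cluster_17026, of +17 nt. That neighbour had 47, 0, 12, 116, 66 and 40 reads in the same order and so was not at 0 where Cluster_17025 was.

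**Figure D4:**
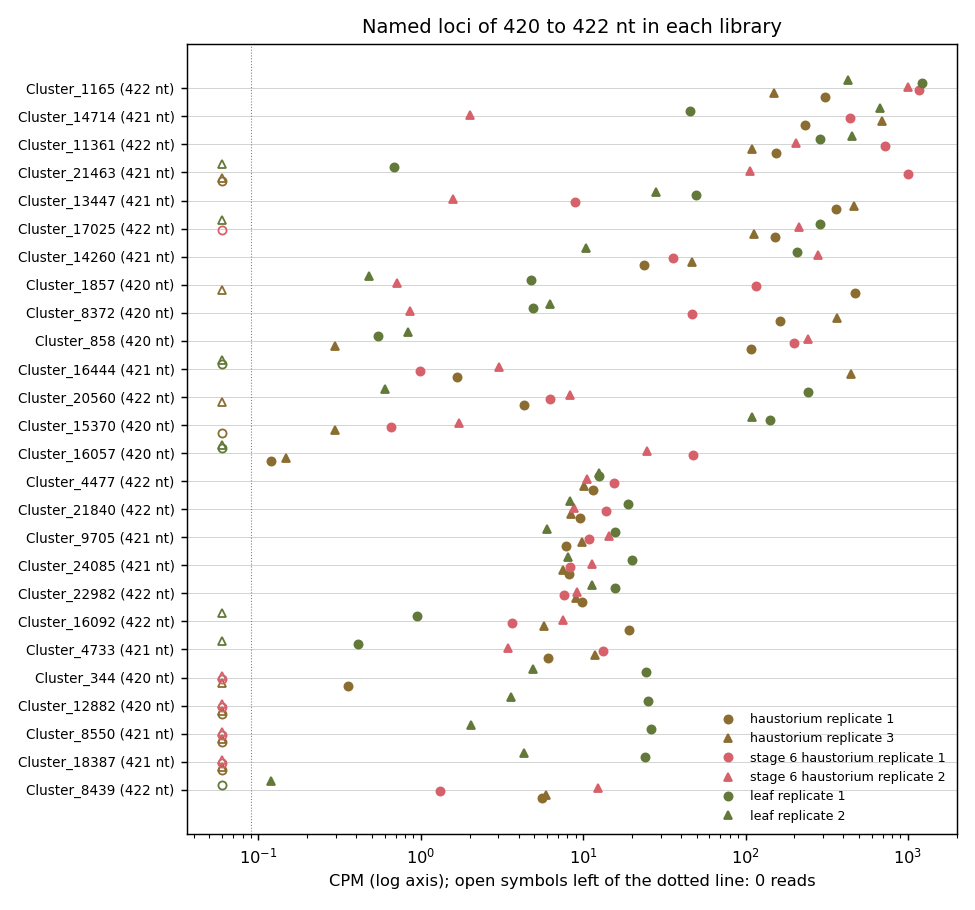
CPM on a log axis (x axis) of 26 loci of +20 to +22 nt in each of the 6 libraries, ordered by mean CPM, with colour for the group and shape for the replicate. Open symbols left of the dotted line are libraries with 0 reads. Cluster_4477 and the 4 loci under it stay within a narrow band about 10 CPM, whereas the loci above them spread over 2 or more powers of 10 in most cases.

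A few abundant loci were mainly of haustorium, but in different libraries of it. Cluster_13447 (+21 nt, CACSLK010027751.1:12434894-12435314) had 361 and 468 CPM in unstaged haustorium, 8.91 and 1.58 CPM in stage 6 haustorium, and 49.8 and 28.1 CPM in leaf. All 3 groups were apart, and the stage 6 haustorium libraries were the lowest. The log2 fold change of stage 6 against unstaged haustorium was -6.64 ± 1.25 (SE), with an unadjusted p of 0.00699 in edgeR that did not pass adjustment and an adjusted p of 0.000195 in DESeq2.

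Cluster_21463 (+21 nt, CACSLK010031421.1:3335346-3335766, 458 nt from SHERM_05416) had 0 and 0 reads in unstaged haustorium, 3018 and 741 reads in stage 6 haustorium, and 5 and 0 reads in leaf. In CPM the stage 6 haustorium libraries had 995 and 107, and all others were at 0.68 or less. The groups did not overlap between stage 6 haustorium and the rest. The unadjusted p of edgeR was 0.00748 against unstaged haustorium and 0.0114 against leaf, neither past adjustment, and the adjusted p of DESeq2 was 8.47e-06 and 8.72e-05. Cluster_16057 (+20 nt, CACSLK010027831.1:13838421-13838840) had the same shape at a lower level, with 1 and 1, 145 and 173, and 0 and 0 reads. Its stage 6 haustorium libraries, at 47.8 and 24.9 CPM, lay above every other library, none of which passed 0.147 CPM. With leaf taken at the limit of 3 reads over both leaf libraries, 0.191 CPM, the mean of all haustorium libraries was 95.3-fold higher. That size was carried by stage 6 haustorium, since unstaged haustorium, at 0.119 and 0.147 CPM, was itself below the limit. That limit covers counting error only, and the locus was picked for its low level in leaf. DESeq2 did not call the contrast of leaf with all haustorium (adjusted p of 0.0604), and neither did edgeR (unadjusted p of 0.00638). For stage 6 haustorium alone the adjusted p of DESeq2 was 0.000159 against leaf and 0.00396 against unstaged haustorium, and edgeR called neither (unadjusted p of 0.00151 and 0.00327). Only 43 nt away, Cluster_16058 (+27 nt) had 150, 90, 39, 40, 148 and 5 reads in the order of the groups, a different pattern.

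Cluster_858 (+20 nt, CACSLK010000984.1:29069799-29070218, 92839 nt from SHERM_10037) had 108 and 0.294 CPM in unstaged haustorium, 199 and 243 CPM in stage 6 haustorium, and 0.544 and 0.84 CPM in leaf. Leaf was low in both libraries, but so was haustorium replicate 3, so leaf and haustorium overlapped. The log2 fold change of leaf against haustorium was -7.01 ± 1.75 (SE), with an unadjusted p of 0.0324 in edgeR, not past adjustment, and an adjusted p of 0.00732 in DESeq2. Without haustorium replicate 1 it was -3.60. Cluster_8372 (+20 nt, CACSLK010018944.1:5259386-5259805) had 163 and 367, 46.8 and 0.863, and 4.90 and 6.24 CPM. Unstaged haustorium was above both other groups there, while the single low stage 6 haustorium library was below leaf.

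Cluster_1857 (+20 nt, CACSLK010003174.1:10130359-10130778) had 472 and 0, 116 and 0.719, and 4.76 and 0.48 CPM. A single haustorium library held 79.4% of its summed CPM. Cluster_16444 (+21 nt, CACSLK010027832.1:6008262-6008682) went further, with 1.67 and 444, 0.989 and 3.02, and 0 and 0 CPM. Haustorium replicate 3 held 98.7% of its summed CPM. DESeq2 still called it lower in leaf than in haustorium (adjusted p of 0.00856). It also called it lower in stage 6 than in unstaged haustorium (adjusted p of 0.0301). A DESeq2 call here can thus rest on a single library, and edgeR called neither. The locus lies 209 nt from SHERM_26866. With leaf at the limit of 3 reads, which covers counting error only, the mean of all haustorium libraries was 587-fold higher. That size was carried by haustorium replicate 3. Cluster_20560 (+22 nt, CACSLK010030184.1:19939908-19940329) was of this kind in leaf, with 4.30 and 0, 6.27 and 8.34, and 244 and 0.60 CPM. Leaf replicate 1 held 92.6% of its summed CPM, and leaf replicate 2 lay within the range of haustorium.

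The locus that separated leaf from haustorium most plainly was Cluster_15370 (+20 nt, CACSLK010027802.1:469683-470102, 2964 nt from SHERM_25528). It had 0 and 2 reads in unstaged haustorium, 2 and 12 in stage 6 haustorium, and 1042 and 917 in leaf, or 0 and 0.294, 0.66 and 1.73, and 142 and 110 CPM. Both leaf libraries were high and close to each other, and all 4 haustorium libraries were near 0. Leaf had 125.9 ± 22.4 CPM (SD, n = 2) and haustorium 0.67 ± 0.754 CPM (SD, n = 4), a ratio of 188. The log2 fold change was 8.13 ± 1.11 (SE), with an unadjusted p of 0.000733 and an adjusted p of 1.00 in edgeR, and 8.20 ± 1.15 (SE) with an adjusted p of 7.44e-09 in DESeq2. It was highest in leaf without either library that stood apart, since leaf replicate 2 alone was at 110 CPM. Cluster_15369, a locus of +23 nt at a distance of 206 nt, had 733 and 1, 2 and 457, and 389 and 88 reads and did not share the pattern.

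Among loci whose leaf and haustorium levels did not overlap, the others with the largest fold changes toward leaf were of low abundance and weighted to leaf replicate 1. Cluster_12882 (+20 nt, CACSLK010027624.1:5369984-5370403) had 0 reads in all 4 haustorium libraries and 184 and 30 in leaf. Cluster_8550 (+21 nt, CACSLK010019758.1:1809387-1809807) had 0 in haustorium and 193 and 17 in leaf, and Cluster_18387 (+21 nt, CACSLK010027842.1:7712169-7712589) had 0 in haustorium and 176 and 36 in leaf. These are the 3 loci with both leaf libraries above a haustorium at 0 throughout. The leaf mean was set against the limit of 3 reads over the 4 haustorium libraries. It was 120.1-fold higher than that limit for Cluster_12882, 118.7-fold for Cluster_8550 and 118.6-fold for Cluster_18387. The limit covers counting error only and not the spread between replicates. Leaf replicate 1 held 87.4%, 92.8% and 84.7% of the summed CPM of these loci, so it carried the means. The loci were picked for large fold changes toward leaf, so these sizes are not separate estimates. Cluster_18387 overlaps SHERM_29281 and is the only named locus that overlaps a gene. Cluster_344 (+20 nt, CACSLK010000984.1:882807-883226) had 3 reads in haustorium replicate 1, 0 in the other haustorium libraries, and 178 and 41 in leaf. Of these, edgeR called none, and DESeq2 called Cluster_344, Cluster_12882 and Cluster_18387 with adjusted p of 0.0153, 0.0412 and 0.0312.

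Among loci whose leaf and haustorium levels did not overlap, those with the largest fold changes away from leaf, apart from Cluster_16444 and Cluster_16057, were also of low abundance. Cluster_16092 (+22 nt, CACSLK010027831.1:14250837-14251258) had 161 and 39 reads in unstaged haustorium, 11 and 52 in stage 6 haustorium, and 7 and 0 in leaf. It lies 44 nt from SHERM_26453. Cluster_4733 (+21 nt, CACSLK010012206.1:1372549-1372969) had 51 and 80, 40 and 24, and 3 and 0 reads. Cluster_8439 (+22 nt, CACSLK010019251.1:5001967-5002388) had 47 and 40, 4 and 86, and 0 and 1 reads. All 4 haustorium libraries had the RNA in each case, at 1.32 CPM or more, and leaf had less than 1 CPM. The log2 fold changes were -4.61 ± 1.17, -6.07 ± 1.50 and -6.03 ± 1.70 (SE), with unadjusted p of 0.0167, 0.0136 and 0.0188 and none past adjustment in edgeR, and adjusted p of 0.0276, 0.0237 and 0.0388 in DESeq2. These sizes rest on few leaf reads: with 1 library left out they ran from -8.69 to -3.82 for Cluster_16092, from -9.11 to -5.03 for Cluster_4733 and from -8.54 to -4.83 for Cluster_8439, the largest without leaf replicate 1 for the first 2 and without leaf replicate 2 for Cluster_8439.

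Against these, a small set of loci was steady in every library at about 10 CPM, with CPM scaled to library totals only. The TMM factors, from 0.609 for haustorium replicate 3 to 1.78 for stage 6 haustorium replicate 2, were not applied to CPM. Dividing near equal CPM by factors so unlike would spread them, so steady refers to this scale alone. Cluster_4477 (+22 nt, CACSLK010011313.1:3167444-3167865) had 11.5 and 10.2, 15.5 and 10.5, and 12.5 and 12.5 CPM, the smallest spread of any locus in the class (SD of 0.21 of log2(CPM + 0.5) over the 6 libraries, against a median of 1.36). Cluster_22982 (+22 nt, CACSLK010034050.1:314433-314854) had 9.90 and 8.98, 7.59 and 9.21, and 15.7 and 11.4 CPM. The groups of Cluster_4477 overlapped, whereas both leaf libraries of Cluster_22982 were slightly above haustorium. Its log2 fold change was 0.50 ± 0.63 (SE), with an unadjusted p of 0.453 in edgeR.

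Cluster_21840, Cluster_9705 and Cluster_24085 completed this set, and each had between 6.00 and 20.01 CPM in every library. Their next small RNA loci were not all steady. Cluster_22981, of +21 nt and 716 nt from Cluster_22982, had 32 and 0, 48 and 108, and 0 and 33 reads, and Cluster_24084, of +21 nt and 257 nt from Cluster_24085, had 31 and 34, 47 and 44, and 204 and 32 reads. In both cases the adjacent locus varied more between libraries than the steady one. The steady loci were picked for a small spread over these same libraries, so the choice favours this outcome and no conclusion is drawn. Cluster_21839, 777 nt from Cluster_21840, had 82 and 37, 17 and 80, and 136 and 31 reads. Cluster_21840 itself had 80 and 57, 42 and 61, and 138 and 69 reads.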

How the data were processed

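Small RNA of 4 haustorium and 2 leaf libraries was counted per locus. Per the paper's methods and the labels, the authors removed adapters and called loci on the SHERM assembly by ShortStack version 4.0.4 at its defaults. The deposited value is a raw count of reads for every locus in every library. The sources used here give neither aligner settings nor the handling of reads matching several places. Locus lengths of 420, 421 and 422 nt are written as +20, +21 and +22 nt.

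Counts were used as deposited, and CPM was computed over all counted reads (3031863 to 8381235 a library). Intervals and floors (95% exact binomial, 3 reads) cover only the error of counting, because PCR duplicates cannot be told from separate molecules. Contrasts used the quasi-likelihood test of edgeR 4.0.16 (R 4.3.3) after filterByExpr and TMM, adjusted by Benjamini and Hochberg over 24421 loci with a threshold of 0.05, on 3 groups with 3 residual degrees of freedom, and standard errors were Wald errors of that fit. DESeq2 1.42.0, other scalings and filters, a replicate block and leaving out libraries were alternatives. Shares and class differences used exact permutation tests over libraries in Python 3.11.15, numpy 2.4.6, pandas 2.3.3 and scipy 1.17.1, and figures used matplotlib 3.10.9.

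The loci and rules were chosen with earlier results of these data known. Named loci were the 10 most abundant by the average of the group means of CPM, the top 3 at each length, the 5 most abundant steady ones (10 or more reads in every library, smallest 5% of SD), the 5 with the highest CPM among those with 0 reads somewhere, and the 5 highest and 5 lowest fold changes of leaf among loci whose groups did not overlap. None was called by edgeR. Gene positions came from 29520 annotated genes of the same assembly. No genome sequence was used here, so no locus sequence is shown. Leaf and stage 6 haustorium share the numbers 1 and 2, but no source pairs them.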

Additional observations from a re-analysis of the deposited data

Results flagged for a closer look

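In the 4 haustorium libraries taken as a group, the highest library of 5 named loci lay farther from the others than Dixon's 95% limit for 4 samples allows. In all, 29 groups were tested, most of them named loci picked for high or uneven levels. The 4 libraries also pool stage 6 and unstaged haustorium. The number of flags can therefore not be set against a chance rate. Cluster_11361 had 720 CPM in stage 6 haustorium replicate 1, against 110 to 205 CPM in the other 3. Cluster_21463 had 995 CPM in the same library, against 0 to 107 CPM. Cluster_14260 had 279 CPM in stage 6 haustorium replicate 2, against 23.9 to 47.1 CPM. Cluster_16444 had 444 CPM in haustorium replicate 3, against 0.989 to 3.02 CPM. Cluster_344 had 0.358 CPM, or 3 reads, in haustorium replicate 1 and 0 in the others, which is within what counts of 0 allow.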

How the results depend on the processing

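edgeR called 0 of the loci in each contrast under every alternative run, including the replicate block (0 calls, median log2 fold change of leaf against haustorium 0.12), the block with leaf numbers crossed (0 calls, added after seeing the data) and leaving out each library (0 calls). DESeq2 called 21, 13 and 41 in the 3 contrasts. Whether the replicate numbers pair the libraries cannot be told from these counts. The differences between the replicates of leaf and of stage 6 haustorium had a correlation of -0.13 over all loci. Over the +20 to +22 nt loci it was 0.043. Each group gives a single such difference, and loci are not replicates, so no conclusion on pairing is drawn.

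The difference in the share of reads, 0.271 points, ranged from -0.651 (without leaf replicate 1) to 1.19 when each library was left out, and was -0.293 without both libraries that stood apart, an alternative added after seeing the data. The difference in loci with 0 reads between leaf and haustorium ranged from -5.99 to -1.34 points, that from +23 or +24 nt loci from 0.897 to 1.35 points, and the log2 difference in median CPM from -0.25 to -0.23. Only with mean CPM did the last turn, to 0.15. The median log2 fold change of the +20 to +22 nt loci took both signs when each library was left out, from -0.089 to 0.38, -0.20 to 0.37 and -0.18 to 0.50 in the 3 contrasts. With 10 or more reads required in every library it was -0.018 for leaf against haustorium and -0.049 for leaf against stage 6 haustorium. Scaling by library totals moved the median of all loci by over 0.1: for leaf against haustorium it went from 0.12 to 0.32, with 0.35 for the +20 to +22 nt loci, for leaf against stage 6 haustorium from 0.051 to -0.11, with -0.15 for them, and for stage 6 against unstaged haustorium from 0.016 to 0.74, with 0.92 for them.

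Of the named loci, several with small or uneven fold changes of leaf against haustorium changed sign when 1 library was left out. The ranges were -4.04 to 4.25 for Cluster_14714, -0.81 to 1.62 for Cluster_11361, -1.12 to 0.66 for Cluster_13447, -12.37 to 5.52 for Cluster_17025, -2.15 to 0.74 for Cluster_14260, -7.42 to 0.72 for Cluster_1857, -1.98 to 7.78 for Cluster_20560, -0.87 to 0.55 for Cluster_4477, -0.25 to 0.62 for Cluster_21840 and -0.069 to 0.90 for Cluster_22982. Cluster_858 (-8.29 to -3.60), Cluster_8372 (-5.21 to -1.16), Cluster_15370 (7.51 to 10.06) and Cluster_344 (6.86 to 9.33) kept their sign while the size moved. The same held for others, among them Cluster_21463 (-7.50 to -1.95), Cluster_16444 (-10.93 to -6.72), Cluster_8550 (7.37 to 9.91) and Cluster_12882 (8.18 to 9.84). The replicate block gave 0.57 for Cluster_13447, 0.32 for Cluster_14260 and 0.097 for Cluster_9705, library totals gave 0.27 for Cluster_17025, 0.55 for Cluster_14260 and 0.040 for Cluster_9705, and DESeq2 gave -0.039 for Cluster_4477, each a change of sign. The cause was not tested. Depth limits the +20 to +22 nt loci most in stage 6 haustorium replicate 1, where 3 reads are 0.989 CPM.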
